A study of Rattus norvegicus with 6 samples.

Results

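The genes described here encode enzymes and transporters that carry glucose carbon through glycolysis, lactate exchange, pyruvate dehydrogenase, the citrate cycle and glycogen. They were taken by name from a list of 42 genes, which was chosen with earlier results of these data known. Of these, 40 were found by symbol among the 32623 genes measured, and all 40 passed the filter on low values, a mean of at least 0.5 FPKM over 6 libraries (FPKM: fragments per kilobase of gene, scaled to the library). Gapdh and Ogdh were not found under those symbols. Bulk poly(A) RNA was sequenced from spinal cord of female Wistar rats, 8 weeks old and weighing 200 to 230 g, all of them from a spinal cord injury model. In the ES group (3 libraries) the injured rats received electrical stimulation, and in the SCI group (3 libraries) they did not. Both groups are injured cord, so the comparison shows what differed with stimulation after injury, and uninjured cord was not analysed here. The sources used here give neither the site and level of the injury nor the stimulation settings or the time of sampling.

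Glycolysis turns glucose into pyruvate in the cytosol. Pyruvate either becomes lactate, which monocarboxylate transporters move between cells, or enters mitochondria, where pyruvate dehydrogenase makes acetyl-CoA for the citrate cycle. In the central nervous system, astrocytes hold most of the glycogen and are regarded as a source of lactate for neurons and axons, and many steps have isozymes that differ between cell types.

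Stimulated cord had lower levels of the glycogen phosphorylases Pygm and Pygb and of the lactate transporter Slc16a1, a higher Ldha with a lower Ldhb, and small differences of either direction elsewhere in the pathway. The strongest difference among called genes was in Pygm, the muscle form of glycogen phosphorylase, which had 22.1 ± 0.854 FPKM in ES and 46.3 ± 1.05 FPKM in SCI (SD, n = 3 each). Differences below are log2 fold changes, ES over SCI, on log2(FPKM + 1), with their standard error (SE), and a gene was called at a Benjamini-Hochberg adjusted p under 0.05 from limma over all 15750 genes tested. Of the 40 genes, 12 were called higher and 10 lower in ES, where 17.4% of all tested genes were called higher and 27.6% lower. In either direction 55% of the 40 genes were called, against 45% of all tested genes. The median difference was 0.05 for the 40 genes and -0.06 for all tested genes. With a further minimum of 1.5-fold, no gene of the 40 was called higher and 2 were called lower, Slc16a1 and Pygm, where 3.43% of all tested genes were called higher and 7.42% lower. The 40 genes summed to 3076 to 3109 FPKM in ES libraries and 3022 to 3106 FPKM in SCI libraries, and these ranges overlap. As a share of all FPKM in a library they took 0.538% to 0.543% in ES and 0.557% to 0.572% in SCI, without overlap. That total includes mitochondrially encoded genes, which took 15.3% to 15.5% of it in ES and 11.1% to 12.1% in SCI. Their part in the lower share in ES was not tested.

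**Figure D1:**
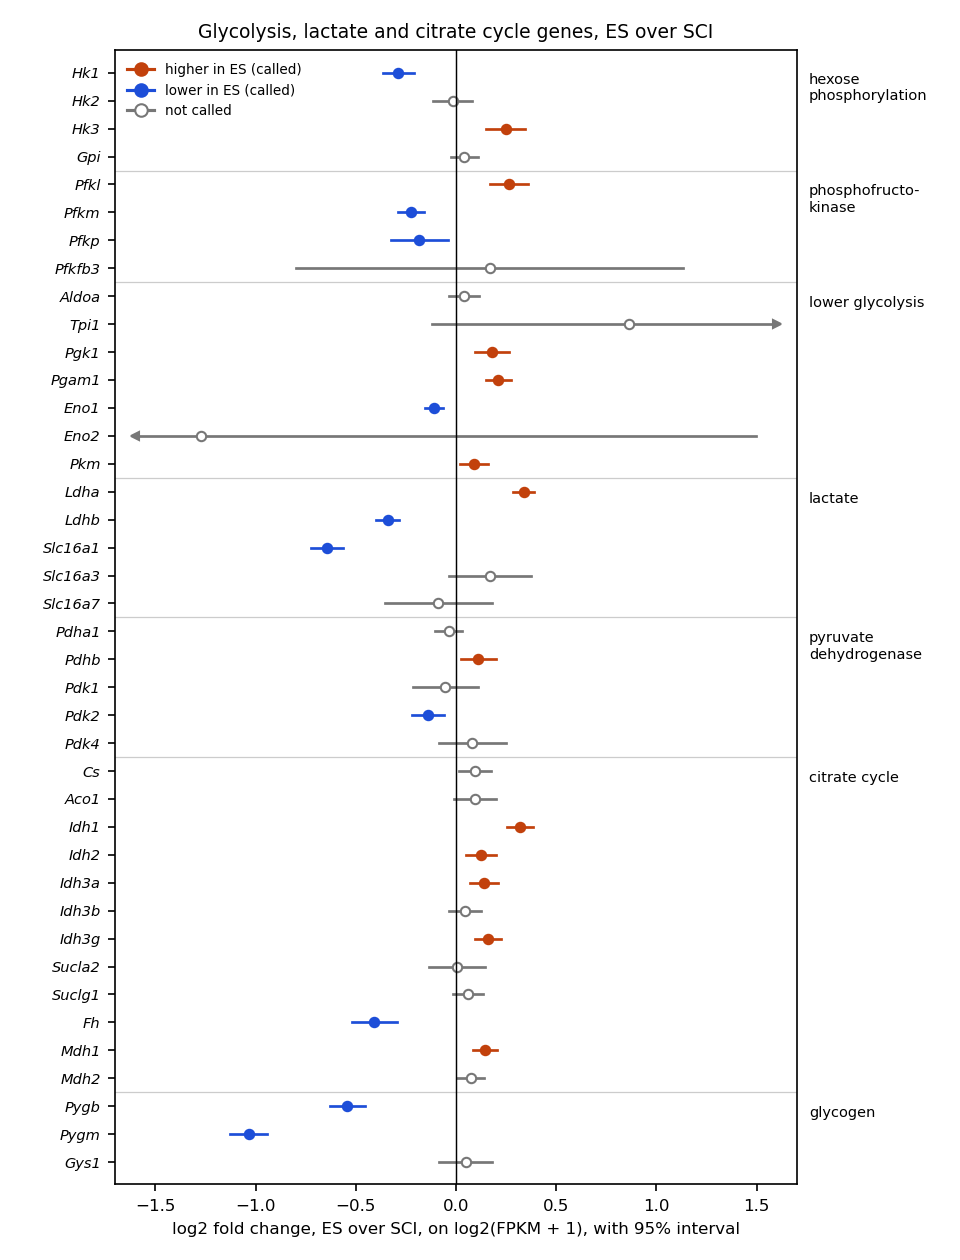
Log2 fold change of each of the 40 genes, ES over SCI, on log2(FPKM + 1), with its 95% interval from limma, in the order of the pathway. Filled points are called genes and open points are not called. Arrowheads mark intervals that run past the axis, for Tpi1 and Eno2. Pygm at -1.03, Slc16a1 at -0.64 and Pygb at -0.54 lie farthest below 0 among called genes, and Ldha at 0.34 and Idh1 at 0.32 lie farthest above it.

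Some facts of the libraries touch every value that follows. Depth, estimated from the smallest steps of transcript values and taking 1 step as 1 read pair, was 13900000 to 16100000 read pairs in ES libraries and 16300000 to 18600000 in SCI libraries. Mitochondrially encoded genes took 15.3% to 15.5% of all FPKM in ES and 11.1% to 12.1% in SCI. Whether every library came from its own rat is not stated in the labels, and p-values therefore reflect the spread among libraries alone, part of which may be technical. Another scaling of the libraries moves the median of all genes, which was -0.06 as deposited, -0.12 after rescaling to equal totals and 0.03 after centring on the median of log values, and small differences move with it. Of the 22 called genes, 13 kept their call under all 4 other scalings and also without any 1 library. These were Hk3, Pfkl, Pgam1, Ldha, Idh1 and Idh3g among the higher genes and Hk1, Pfkm, Ldhb, Slc16a1, Fh, Pygb and Pygm among the lower ones.

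The cell makeup of the tissue also differed with stimulation, as far as marker genes show it. The counts below stand beside 17.4% of all tested genes called higher and 27.6% called lower. Of 11 oligodendrocyte markers 11 were called higher in ES, and they summed to 13679 to 13708 FPKM in ES and 8624 to 8705 FPKM in SCI. Of 11 microglia and macrophage markers 9 were higher, with sums of 7367 to 7515 FPKM in ES and 4823 to 4871 FPKM in SCI. Neuronal markers were higher in 9 of 12 cases, with sums of 518 to 537 FPKM in ES and 405 to 425 FPKM in SCI. Astrocyte markers were lower in 10 of 11 cases, with sums of 3993 to 4108 FPKM in ES and 5592 to 5685 FPKM in SCI. The remaining astrocyte marker had a log2 fold change of 0.80 and was not called. Markers of fibroblasts and meninges were lower in 8 of 8 cases, with sums of 2584 to 2604 FPKM in ES and 5574 to 5664 FPKM in SCI. Schwann cell markers were lower in 6 of 7 cases, with 1 higher. Endothelial markers were lower in 4 of 5 tested, with 1 more endothelial marker listed at 0 throughout. Blood cell markers were higher, those of erythrocytes in 6 of 6 cases, with sums of 2975 to 3189 FPKM in ES and 519 to 546 FPKM in SCI, and those of neutrophils in 4 of 7, with 1 lower. In bulk RNA, fewer cells of a type and less RNA per cell cannot be told apart. The part of these marker differences in the pathway's differences was not tested.

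The first step of glycolysis, phosphorylation of glucose by hexokinase, showed opposite differences between isozymes. Hk1, the main hexokinase of neural tissue, had 35.4, 36.9 and 36.9 FPKM in ES, against 44.5, 45.8 and 43.7 FPKM in SCI, and every ES library lay below every SCI library (log2 fold change -0.29 ± 0.03 SE, adjusted p 0.000623). Hk3, known mainly from leukocytes, had 24.9, 24.6 and 24.8 FPKM in ES, against 21.0, 19.7 and 21.5 FPKM in SCI (0.25 ± 0.04 SE, adjusted p 0.00306). Hk2, the inducible hexokinase, had 15.9, 16.4 and 15.3 FPKM in ES and 15.7, 16.2 and 16.3 FPKM in SCI, with overlapping groups and a difference of -0.02 whose 95% interval ran from -0.11 to 0.08. Gpi, which converts glucose 6-phosphate into fructose 6-phosphate, averaged 139 ± 1.90 FPKM in ES and 135 ± 3.77 FPKM in SCI (SD, n = 3 each) and was not called (adjusted p 0.26).

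Phosphofructokinase, the committed step of glycolysis, is built from liver, muscle and platelet type subunits. The liver type Pfkl had 36.9, 37.9 and 36.7 FPKM in ES, against 30.6, 29.5 and 32.3 FPKM in SCI, with no overlap (0.26 ± 0.04 SE, adjusted p 0.00219). The muscle type Pfkm had 33.6, 33.3 and 34.4 FPKM in ES, against 39.4, 39.7 and 39.8 FPKM in SCI, also with no overlap and in the other direction (-0.22 ± 0.03 SE, adjusted p 0.000896). By these gene values Pfkl stood above Pfkm in ES libraries and below it in SCI libraries. The order in ES depends on the measure. The Pfkm gene value was 0.93 of the sum of its transcripts, while Pfkl has a single transcript. In ES replicate 3 the Pfkm transcript ENSRNOT00000078579 had 37.0 FPKM, above Pfkl at 36.7 FPKM. The platelet type Pfkp had 38.7, 38.4 and 39.9 FPKM in ES, against 40.5, 45.7 and 47.4 FPKM in SCI (-0.18 ± 0.06 SE, adjusted p 0.0443). The Pfkp call was lost, with adjusted p between 0.0771 and 0.116, when any library other than SCI replicate 1 was left out, and also under quantile normalization and median centring.

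Pfkfb3 makes fructose 2,6-bisphosphate, a potent activator of phosphofructokinase. It had 19.4, 20.3 and 19.7 FPKM in ES, against 8.10, 24.6 and 26.2 FPKM in SCI. SCI replicate 1 lay below all ES libraries and the other SCI libraries lay above them, and Pfkfb3 was not called (0.17 ± 0.40 SE, adjusted p 0.765). Without SCI replicate 1 the difference was -0.34 with an adjusted p of 0.00321. The deposited transcript values show where that library departs. The Pfkfb3 transcript of 17 exons (ENSRNOT00000051067) had 19.6, 20.9 and 20.6 FPKM in ES and was listed at 0, 23.9 and 26.5 FPKM in SCI. The transcript of 15 exons (ENSRNOT00000025731) had 1.92, 1.86 and 1.29 FPKM in ES and 16.0, 5.37 and 3.60 FPKM in SCI. In SCI replicate 1 the transcript that is minor in every other library was therefore the main one. The deposited gene value of Pfkfb3 is not the plain sum of its transcripts, at 0.431 to 0.9 of it over the libraries.

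Among the enzymes that turn fructose 1,6-bisphosphate into pyruvate, 3 of 7 measured genes were called higher and 1 lower, with differences of small size. Of all tested genes 17.4% were called higher and 27.6% lower. Aldoa, an aldolase, had 479, 482 and 475 FPKM in ES and 477, 445 and 474 FPKM in SCI, the highest level of the 40 genes in both groups. It was not called (0.04, 95% interval -0.03 to 0.11), and the sign of its difference turned under quantile normalization and equal totals. Aldoa was called lower under quantile normalization (-0.081) and higher under median centring (0.13). Pgk1, the first of the ATP-forming enzymes, averaged 157 ± 5.79 FPKM in ES and 138 ± 4.19 FPKM in SCI (0.18, adjusted p 0.00742). Pgam1, which moves the phosphate of 3-phosphoglycerate, averaged 130 ± 1.31 FPKM in ES and 113 ± 2.93 FPKM in SCI (0.21, adjusted p 0.000995). Eno1, the widely expressed enolase, averaged 290 ± 2.15 FPKM in ES and 313 ± 2.76 FPKM in SCI (-0.11, adjusted p 0.00407). Pkm, the pyruvate kinase of most tissues, averaged 286 ± 9.30 FPKM in ES and 268 ± 4.73 FPKM in SCI (0.09, adjusted p 0.0476; SD, n = 3 each throughout). The calls of Pgk1 and Pkm were lost under quantile normalization and equal totals, and that of Eno1 under median centring. The Pkm call was also lost under equal totals without mitochondrially encoded genes, and without any 1 library other than ES replicate 3 (adjusted p 0.0564 to 0.134). Looked up after values were seen, AABR07044711 (44.0 ± 7.42 FPKM in ES, 45.6 ± 9.25 FPKM in SCI) and LOC100364062 (15.8 ± 5.05 FPKM in ES, 12.7 ± 0.554 FPKM in SCI) were not called. Both are described as M2 pyruvate kinase-like. With their FPKM added, Pkm differed by 0.08 (adjusted p 0.0272), and whether reads were split between these genes was not tested. Glyceraldehyde-3-phosphate dehydrogenase is described in the table for 2 genes that share the symbol LOC108351137, and these were looked up after other values had been seen. The one on chromosome 4 (ENSRNOG00000018630) averaged 730 ± 43.0 FPKM in ES and 738 ± 51.7 FPKM in SCI and was not called (adjusted p 0.854). The one on chromosome 5 (ENSRNOG00000030963) had 185, 323 and 276 FPKM in ES and 111, 98.5 and 246 FPKM in SCI. Its groups overlap and it was not called (0.87, adjusted p 0.104), but without SCI replicate 3 the difference was 1.28 and was called (adjusted p 0.00951).

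For Tpi1 and Eno2, 1 library stood apart. Tpi1, triosephosphate isomerase, had 70.5, 70.0 and 72.7 FPKM in ES, against 50.8, 18.4 and 60.9 FPKM in SCI. All ES libraries lay above all SCI libraries, yet SCI replicate 2 lay far below the rest and the gene was not called (0.86 ± 0.41 SE, adjusted p 0.132); without that library the difference was 0.35 with an adjusted p of 0.0172. Eno2, the neuronal or gamma enolase, had 34.7, 35.3 and 0.674 FPKM in ES and 31.1, 28.9 and 30.9 FPKM in SCI. ES replicate 3 was near 0 where the other ES libraries lay above all SCI libraries (-1.27 ± 1.15 SE, adjusted p 0.408), and without it the difference was 0.20 with an adjusted p of 0.0206. For each, the table holds a gene on chromosome 9 with a like description; the sequences were not compared here, and whether reads were split between them was not tested. LOC100911515, described as triosephosphate isomerase-like, had 126, 120 and 120 FPKM in ES and 86.0, 85.0 and 78.6 FPKM in SCI (0.55, adjusted p 0.000126). LOC100911625, described as gamma-enolase-like, had 32.8, 33.3 and 38.4 FPKM in ES and 29.5, 27.4 and 29.3 FPKM in SCI (0.27, adjusted p 0.0174), a call that was lost without SCI replicate 2 (adjusted p 0.0529). LOC100911625 had its highest level of all libraries in ES replicate 3, where Eno2 was near 0. In an alternative chosen after these values were seen, the FPKM of each pair were added. Tpi1 and LOC100911515 then stood at 190 to 197 FPKM in ES and 103 to 139 FPKM in SCI (0.62, adjusted p 0.00461), and Eno2 and LOC100911625 at 39.1 to 68.5 FPKM in ES and 56.3 to 60.7 FPKM in SCI (-0.06, adjusted p 0.841).

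**Figure D2:**
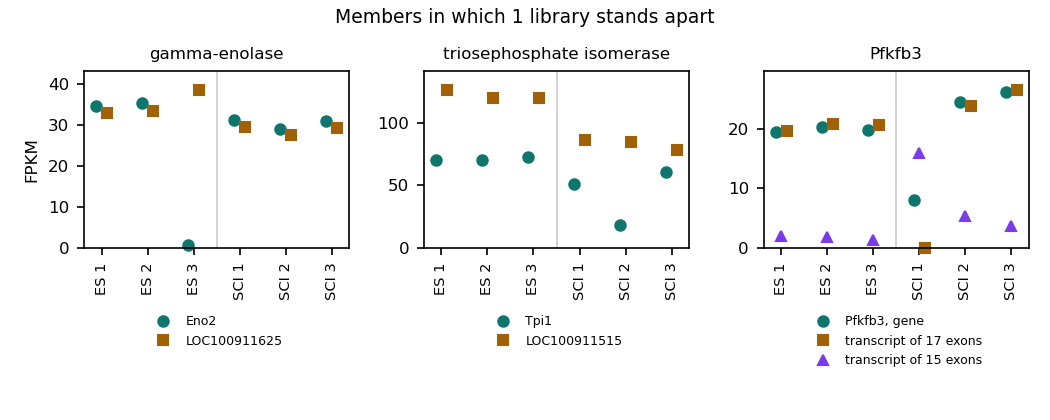
FPKM in each library, ES on the left and SCI on the right of each panel, for Eno2 and Tpi1 with the genes of like description and for Pfkfb3 with its 2 main transcripts. Eno2 drops to 0.674 FPKM in ES replicate 3, Tpi1 to 18.4 FPKM in SCI replicate 2, and the Pfkfb3 transcript of 17 exons is listed at 0 in SCI replicate 1.

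Pkm was the 1 gene called in the test of transcript usage, which asks whether transcripts of a gene differ in their change (adjusted p 0.00268, limma's diffSplice with a Simes p per gene). Of the 40 genes 8 could be tested in this way, 28 having a single transcript in the table, and 13.3% of 2589 genes tested over the whole table were called. The Pkm transcript of 11 exons (ENSRNOT00000015332) had 227, 218 and 211 FPKM in ES, against 188, 190 and 185 FPKM in SCI, and was called higher (0.22 ± 0.03 SE, adjusted p 0.0039). The Pkm transcript of 10 exons (ENSRNOT00000083666) had 124, 124 and 118 FPKM in ES, against 145, 134 and 136 FPKM in SCI, and was called lower (-0.18 ± 0.04 SE, adjusted p 0.0204). The longer transcript made up 64.2% ± 0.359 of the sum of both in ES and 57.6% ± 1.15 in SCI (SD, n = 3 each), with no overlap. The gene-level difference of Pkm was thus small where its transcripts differed in opposite directions. The deposited gene value is not their plain sum, at 0.82 to 0.839 of it. Over all transcripts of the 40 genes, 50 of 56 passed the filter, 11 were called higher and 10 lower, where 12.8% of all 19223 tested transcripts were called higher and 19.5% lower.

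Lactate dehydrogenase is a tetramer of A and B subunits. Tetramers rich in the A subunit, encoded by Ldha, favour the step from pyruvate to lactate, and those rich in the B subunit, encoded by Ldhb, favour the way back. Ldha (ENSRNOG00000013009, chr1:102900286-102909707 in the authors' coordinates, for which the sources used here name no build) had 134, 130 and 131 FPKM in ES, against 105, 104 and 103 FPKM in SCI. All ES libraries lay well above all SCI libraries (0.34 ± 0.02 SE, adjusted p 6.5e-05). Ldhb (ENSRNOG00000013000, chr4:176701983-176720012) had 179, 177 and 185 FPKM in ES, against 229, 229 and 228 FPKM in SCI, again with no overlap and in the other direction (-0.34 ± 0.02 SE, adjusted p 7.96e-05). Within a library Ldha stood at 0.747, 0.737 and 0.707 of Ldhb in ES and at 0.459, 0.455 and 0.451 of Ldhb in SCI, a ratio that does not depend on how libraries are scaled. RGD1562690, a gene described as like the A chain, had 10.0, 8.93 and 10.1 FPKM in ES and 5.27, 4.77 and 3.02 FPKM in SCI (1.02, adjusted p 0.00301). The sum of Ldha and this gene differed by 0.38 (adjusted p 6.76e-05).

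The monocarboxylate transporters move lactate, pyruvate and ketone bodies with a proton. Slc16a1 encodes MCT1, found in astrocytes, oligodendrocytes and endothelium, and had the second strongest difference among called genes of the set. Slc16a1 (ENSRNOG00000019996, chr2:207108552-207128554 in the authors' coordinates) had 31.9, 31.2 and 32.3 FPKM in ES, against 49.4, 52.1 and 49.5 FPKM in SCI. The ES libraries formed a narrow range far below the SCI libraries (-0.64 ± 0.03 SE, adjusted p 2.21e-05), and the ES mean was 0.632 of the SCI mean. Slc16a3, encoding MCT4, the exporter of strongly glycolytic cells, had 5.63, 5.09 and 5.68 FPKM in ES and 5.29, 4.20 and 4.79 FPKM in SCI, with overlap and no call (0.17, 95% interval -0.03 to 0.37). It passed the threshold under quantile normalization (0.30) and median centring (0.26). Slc16a7, encoding the neuronal MCT2, had 3.12, 2.61 and 2.51 FPKM in ES and 2.47, 3.26 and 3.25 FPKM in SCI, with overlap and no call (-0.09, 95% interval -0.36 to 0.18). Of the other genes listed for this step, Bsg, the chaperone of MCT1 and MCT4 at the membrane, averaged 285 ± 1.32 FPKM in ES and 259 ± 9.32 FPKM in SCI (0.14, adjusted p 0.00955), a call lost after rescaling to equal totals. Slc16a6 (-0.36, adjusted p 0.0023) and Mpc2, a subunit of the mitochondrial pyruvate carrier (-0.18, adjusted p 0.0148, lost under median centring), were called lower.

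The promoters of the lactate genes are shown because these genes moved in opposite directions and because Ldha is a textbook target of hypoxia-inducible factors, which bind the core letters ACGTG or GCGTG. Each run below is RefSeq sequence of build GRCr8, from 250 bases before to 50 bases after the gene's start, written along the gene's own strand, with matches to either core on either strand in capitals. The runs lie at chr1:106507842-106508141 on the plus strand for Ldha, chr4:177177359-177177658 on the minus strand for Ldhb and chr2:194812410-194812709 on the plus strand for Slc16a1.
Ldha: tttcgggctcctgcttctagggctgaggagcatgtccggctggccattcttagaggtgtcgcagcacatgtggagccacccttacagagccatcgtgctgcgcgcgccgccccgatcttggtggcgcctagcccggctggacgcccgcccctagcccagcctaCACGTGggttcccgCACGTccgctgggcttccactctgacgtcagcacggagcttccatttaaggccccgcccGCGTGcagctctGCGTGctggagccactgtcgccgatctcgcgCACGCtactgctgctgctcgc
Ldhb: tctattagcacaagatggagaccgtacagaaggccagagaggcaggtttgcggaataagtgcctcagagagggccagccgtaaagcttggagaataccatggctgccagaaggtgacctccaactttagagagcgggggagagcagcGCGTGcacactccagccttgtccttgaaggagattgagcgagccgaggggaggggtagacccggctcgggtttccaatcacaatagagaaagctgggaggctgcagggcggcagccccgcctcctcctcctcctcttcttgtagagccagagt
Slc16a1: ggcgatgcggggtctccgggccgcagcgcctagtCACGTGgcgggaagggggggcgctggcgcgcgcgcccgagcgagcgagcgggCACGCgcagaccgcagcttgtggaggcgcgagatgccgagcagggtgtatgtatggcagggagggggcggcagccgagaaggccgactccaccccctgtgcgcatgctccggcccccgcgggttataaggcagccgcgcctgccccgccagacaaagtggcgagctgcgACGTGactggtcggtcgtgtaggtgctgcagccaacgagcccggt
Counting both strands, Ldha held 3 matches to ACGTG and 3 to GCGTG, Slc16a1 held 3 and 1, and Ldhb held 0 and 1. The letters CACGTG hold ACGTG on both strands and count as 2 overlapping matches. Promoters were matched by symbol for 40 of the 42 listed genes, all but Pgk1 and Idh3a. Of these, 45.0% held ACGTG and 45.0% held GCGTG, where 19.3% and 29.7% of all 33469 promoters in the table did, and 65.0% held either, against 41.6% of all. The sets are unlike, since members count by the first promoter listed for a symbol and the whole counts every promoter. Neither base composition nor expression was matched, so the shares are no test of enrichment. A match describes letters only, since no binding was measured, and both Ldha, called higher, and Slc16a1, called lower, hold them.

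Among regulators of the pathway, the subunits of hypoxia-inducible factors differed. Hif1a was called higher, with 28.4, 29.9 and 28.9 FPKM in ES and 25.2, 26.1 and 25.5 FPKM in SCI (0.18, adjusted p 0.00578). Epas1, which encodes HIF-2 alpha and is known for its level in endothelium and astrocytes, was called lower, with 20.9, 20.1 and 20.7 FPKM in ES and 33.6, 31.7 and 33.7 FPKM in SCI (-0.66, adjusted p 3.38e-05). Their partner Arnt was also lower, averaging 10.6 ± 0.353 FPKM in ES and 13.0 ± 0.340 FPKM in SCI (-0.28, adjusted p 0.00262). Of 12 regulators tested, 2 were called higher and 6 lower, with a median of -0.23, where 17.4% and 27.6% of all tested genes were called. Of 15 tested genes of a list of hypoxia responses outside the pathway, 6 were called higher and 4 lower, with a median of 0.05, so the list had no single direction. The mitophagy receptor Bnip3 (45.0 ± 2.22 FPKM in ES, 35.4 ± 2.60 FPKM in SCI; 0.34, adjusted p 0.00481) and Vegfa, a growth factor for vessels (13.9 ± 1.21 FPKM in ES, 10.5 ± 0.927 FPKM in SCI; 0.37, adjusted p 0.0109), were higher. Ndrg1 (135 ± 1.88 FPKM in ES, 213 ± 1.39 FPKM in SCI; -0.65, adjusted p 4.2e-06), the mTOR inhibitor gene Ddit4 (42.4 ± 1.95 FPKM in ES, 71.9 ± 2.86 FPKM in SCI; -0.75, adjusted p 4.39e-05) and Ankrd37 (1.00 ± 0.316 FPKM in ES, 2.46 ± 0.432 FPKM in SCI; -0.79, adjusted p 0.00585) were lower.

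**Figure D3:**
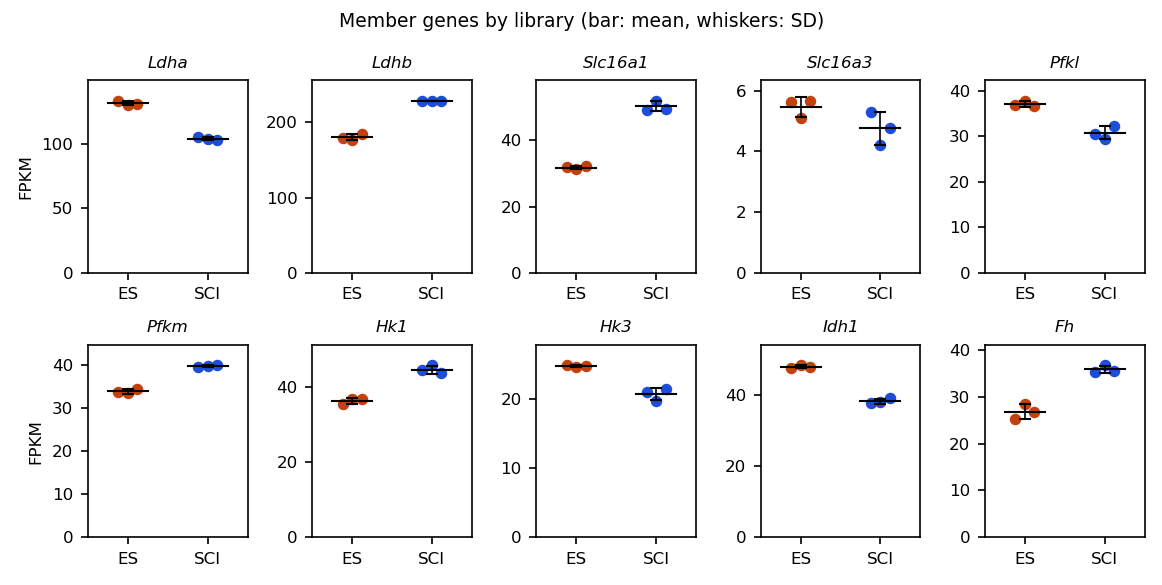
FPKM in each library for 10 genes of glucose phosphorylation, phosphofructokinase, lactate and the citrate cycle, with the mean as a bar and the SD as whiskers (n = 3 each, axes from 0). ES and SCI libraries do not overlap in any panel except Slc16a3, and Ldha, Pfkl, Hk3 and Idh1 stand higher in ES where Ldhb, Slc16a1, Pfkm, Hk1 and Fh stand lower.

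Pyruvate dehydrogenase admits pyruvate to mitochondria's oxidative metabolism, its kinases switch it off and its phosphatases switch it on. The members of this step differed little. Pdha1, its catalytic alpha subunit, had 45.5, 45.1 and 44.4 FPKM in ES and 46.7, 46.7 and 45.1 FPKM in SCI and was not called (-0.04, 95% interval -0.10 to 0.03). Pdhb, the beta subunit, averaged 32.5 ± 1.22 FPKM in ES and 30.0 ± 0.430 FPKM in SCI (SD, n = 3 each) and was called at an adjusted p of 0.0452, a call that was lost without any 1 of the 6 libraries (adjusted p 0.0606 to 0.119). The kinase gene Pdk2 averaged 41.4 ± 1.40 FPKM in ES and 45.7 ± 0.652 FPKM in SCI (-0.14, adjusted p 0.0138, lost under median centring). Pdk1 had 9.91, 9.92 and 10.7 FPKM in ES and 11.6, 10.3 and 9.83 FPKM in SCI, and Pdk4, a kinase induced in fasting, had 15.8, 14.0 and 15.1 FPKM in ES and 12.8, 15.1 and 14.4 FPKM in SCI, both with overlap and no call. Of 7 further genes of the complex tested, 1 was called higher and 4 lower, where 17.4% and 27.6% of all tested genes were. The phosphatase genes Pdp1 (6.0 ± 0.606 FPKM in ES, 8.16 ± 0.369 FPKM in SCI; -0.39, adjusted p 0.00625) and Pdp2 (2.33 ± 0.191 FPKM in ES, 3.50 ± 0.147 FPKM in SCI; -0.43, adjusted p 0.00349) were lower. Pdhx, the structural component that binds the E3 subunit, was higher (15.5 ± 0.373 FPKM in ES, 13.1 ± 0.54 FPKM in SCI; 0.23, adjusted p 0.00646). The other lower genes, named after their values were seen, were the phosphatase regulator Pdpr (-0.36, adjusted p 0.00972, lost under quantile normalization) and the acetyltransferase Dlat (-0.19, adjusted p 0.0208). The Dlat call was lost under quantile normalization, median centring and without ES replicate 2, ES replicate 3 or SCI replicate 2 (adjusted p up to 0.0665).

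Of 12 citrate cycle genes of the set, 5 were called higher and 1 lower. Over all tested genes these shares were 17.4% and 27.6%. The higher genes included 4 of 5 isocitrate dehydrogenase genes, and the lower one was fumarase. Idh1, the cytosolic NADP-dependent form, had 47.8, 48.4 and 48.0 FPKM in ES, against 37.9, 38.0 and 39.2 FPKM in SCI, with no overlap (0.32 ± 0.03 SE, adjusted p 0.000186). Its mitochondrial counterpart Idh2 had 65.1, 67.9 and 65.2 FPKM in ES, against 60.5, 59.2 and 62.2 FPKM in SCI (0.12 ± 0.03 SE, adjusted p 0.0183), a call lost without ES replicate 2 (adjusted p 0.0614), under quantile normalization and under equal totals. Of the subunits of the NAD-dependent enzyme of the cycle itself, Idh3a averaged 36.3 ± 0.305 FPKM in ES and 32.9 ± 0.717 FPKM in SCI (0.14, adjusted p 0.00904, lost under equal totals). Idh3g averaged 63.1 ± 1.19 FPKM in ES and 56.3 ± 0.875 FPKM in SCI (0.16, adjusted p 0.00362). Idh3b had 56.4, 54.2 and 58.4 FPKM in ES and 55.1, 54.6 and 53.9 FPKM in SCI and was not called (0.05, 95% interval -0.04 to 0.13). Fh, fumarase, had 25.2, 28.4 and 26.8 FPKM in ES, against 35.2, 36.7 and 35.5 FPKM in SCI, the strongest difference of the cycle (-0.41 ± 0.05 SE, adjusted p 0.00072). Mdh1, the cytosolic malate dehydrogenase of the malate-aspartate shuttle, averaged 157 ± 3.79 FPKM in ES and 142 ± 0.845 FPKM in SCI (0.15, adjusted p 0.0038, lost under quantile normalization and equal totals).

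The other 5 genes of the cycle in the set were not called. Cs, citrate synthase, the entry of acetyl-CoA, had 71.0, 72.3 and 72.1 FPKM in ES and 70.2, 65.4 and 66.1 FPKM in SCI. It lay just outside the threshold with an adjusted p of 0.0563 and was called without SCI replicate 1 (adjusted p 0.0158) and under median centring. Aco1 (30.2, 30.7 and 30.9 FPKM in ES; 29.2, 26.8 and 29.7 FPKM in SCI), the cytosolic aconitase that doubles as an iron sensor, and Mdh2 (129, 133 and 137 FPKM in ES; 126, 125 and 128 FPKM in SCI), the malate dehydrogenase of the cycle, did not overlap between groups yet were not called. Suclg1, the alpha subunit of succinyl-CoA ligase, had 40.9, 41.7 and 43.3 FPKM in ES and 40.1, 40.8 and 40.0 FPKM in SCI, also without overlap or call. Sucla2, its ATP-forming beta subunit, had 30.1, 28.3 and 30.8 FPKM in ES and 29.6, 31.7 and 27.6 FPKM in SCI, with overlap. Its GTP-forming counterpart Suclg2, from the list of further citrate cycle genes, was called lower, averaging 48.4 ± 1.74 FPKM in ES and 63.7 ± 2.84 FPKM in SCI (-0.39, adjusted p 0.000566). Of the 8 further genes tested, 3 were called higher and 2 lower. Ogdhl (6.58 ± 0.258 FPKM in ES, 4.80 ± 0.171 FPKM in SCI; 0.39, adjusted p 0.00174) and Sdhd, a membrane anchor of succinate dehydrogenase (88.7 ± 3.02 FPKM in ES, 75.7 ± 2.31 FPKM in SCI; 0.23, adjusted p 0.00281), were higher. Also higher, named after its values were seen, was Sdhc (0.17, adjusted p 0.00399, lost under quantile normalization). LOC103693780, described as 2-oxoglutarate dehydrogenase-like and looked up after other values had been seen, was lower (33.7 ± 1.57 FPKM in ES, 41.3 ± 1.65 FPKM in SCI; -0.29, adjusted p 0.00302).

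Glycogen breakdown held the strongest difference among called genes, that of Pygm. Glycogen phosphorylase releases glucose 1-phosphate from glycogen, and the muscle form Pygm and the brain form Pygb are both found in astrocytes. Pygm (ENSRNOG00000021090, chr1:221756286-221771143 in the authors' coordinates) had 22.8, 21.1 and 22.4 FPKM in ES, against 47.5, 45.7 and 45.7 FPKM in SCI. Every ES library lay far below every SCI library, with an ES mean 0.478 of the SCI mean (-1.03 ± 0.04 SE, adjusted p 6.54e-06). Pygm was also the only gene of the 40 that the authors' deposited table marks as significant, with a q-value of 3.96e-30 there. Genes without that mark also had low q-values from the authors' test, such as 2.3e-11 for Slc16a1 and 1.15e-08 for Pygb. In that test 19 of the 40 genes had a p-value under 0.05. How many of all genes had the mark or such a p-value was not counted here, so these counts show nothing particular to the set. Pygb (ENSRNOG00000007583) had 27.7, 27.0 and 26.2 FPKM in ES, against 40.0, 38.5 and 40.8 FPKM in SCI, with no overlap (-0.54 ± 0.04 SE, adjusted p 6.98e-05). Gys1, the glycogen synthase of most tissues, had 5.96, 6.59 and 6.56 FPKM in ES and 6.08, 6.21 and 6.07 FPKM in SCI, with overlap and no call (0.05, 95% interval -0.08 to 0.18). Skeletal muscle markers were near 0 in both groups, 8 genes together summing to 7.48 to 11.4 FPKM in ES and 5.77 to 7.07 FPKM in SCI, and none of the 3 tested was called. The promoter of Pygm, shown as that of the called gene with the strongest difference, lies at chr1:213119555-213119854 of GRCr8 on the plus strand and is written as above, from RefSeq, with core matches in capitals.
Pygm: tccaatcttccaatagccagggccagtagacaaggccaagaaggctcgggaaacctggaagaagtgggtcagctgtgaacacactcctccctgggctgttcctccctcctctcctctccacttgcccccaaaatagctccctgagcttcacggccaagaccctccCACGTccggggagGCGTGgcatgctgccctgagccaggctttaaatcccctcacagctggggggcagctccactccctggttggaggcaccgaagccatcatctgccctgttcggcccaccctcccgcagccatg
It held 1 match to ACGTG and 1 to GCGTG.

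Of the 15 further glycogen genes tested, 1 was called higher, 7 lower and 7 were not called, where 17.4% of all tested genes were called higher and 27.6% lower. Their median difference was -0.23, against -0.06 for all tested genes. Phkg1, a catalytic subunit of phosphorylase kinase, which activates phosphorylase, had 3.66, 2.66 and 3.59 FPKM in ES, against 7.58, 7.64 and 8.01 FPKM in SCI (-1.03, adjusted p 0.000365). Named after their values were seen, Ppp1r3c, which targets a phosphatase to glycogen (6.93 ± 0.567 FPKM in ES, 10.5 ± 0.485 FPKM in SCI; -0.54, adjusted p 0.000931), and Phkb, a regulatory subunit of phosphorylase kinase (9.17 ± 0.353 FPKM in ES, 11.4 ± 0.712 FPKM in SCI; -0.28, adjusted p 0.00742), were also lower. The gene called higher was Pygl, the liver form of phosphorylase, also known from leukocytes, with 11.8, 11.8 and 12.0 FPKM in ES and 8.56, 9.50 and 9.83 FPKM in SCI (0.32, adjusted p 0.0042). Astrocyte markers, summed above, moved down and microglia and macrophage markers up in the same libraries, and their part in these differences was not tested.

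**Figure D4:**
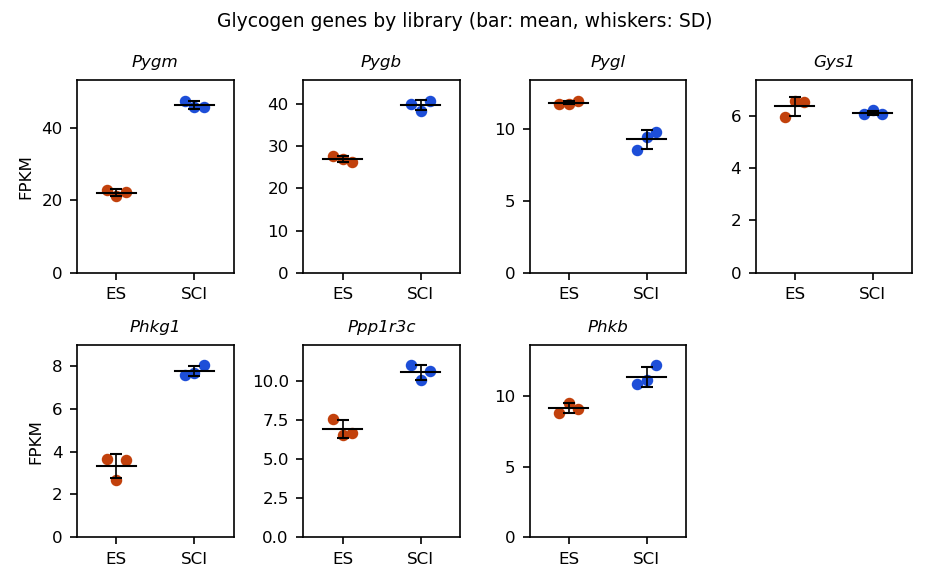
FPKM in each library for 7 genes of glycogen metabolism, with the mean as a bar and the SD as whiskers (n = 3 each, axes from 0). Pygm, Pygb, Phkg1, Ppp1r3c and Phkb are lower in ES with no overlap, Pygl is higher with no overlap, and Gys1 overlaps.

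The remaining neighbours of the pathway were described by their lists, beside shares of 17.4% higher and 27.6% lower among all tested genes. Of 6 tested genes of glucose entry, 1 was called higher and 1 lower: Adpgk, an ADP-dependent glucokinase (17.7 ± 0.667 FPKM in ES, 15.3 ± 0.845 FPKM in SCI; 0.20, adjusted p 0.0188), and Slc2a4, the insulin-responsive glucose transporter (1.33 ± 0.125 FPKM in ES, 2.42 ± 0.410 FPKM in SCI; -0.55, adjusted p 0.00751). The Adpgk call was lost under equal totals and without ES replicate 2, ES replicate 3, SCI replicate 2 or SCI replicate 3 (adjusted p up to 0.0639). Of 8 further glycolysis genes tested, 1 was higher and 3 lower. Aldoc, the aldolase best known from astrocytes, had 502, 507 and 507 FPKM in ES, against 701, 665 and 686 FPKM in SCI (-0.44, adjusted p 3.17e-05). By gene values it exceeded Aldoa, which is also given per length, in every library. The order in ES depends on the measure, since the Aldoa gene value was 0.894 of the sum of its transcripts. Galm, which interconverts the anomers of hexoses, was lower (15.6 ± 0.322 FPKM in ES, 21.0 ± 1.02 FPKM in SCI; -0.40, adjusted p 0.000608). The bifunctional enzymes that set fructose 2,6-bisphosphate differed in direction. Pfkfb4 had 6.84, 7.97 and 6.32 FPKM in ES and 1.01, 2.56 and 4.78 FPKM in SCI (1.21, adjusted p 0.0311), a call lost without any of the ES libraries or SCI replicate 2 (adjusted p 0.0643 to 0.0862). Pfkfb2, named after its values were seen, had 2.71, 3.82 and 2.31 FPKM in ES and 5.43, 5.28 and 5.18 FPKM in SCI (-0.69, adjusted p 0.00691).

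In the pentose phosphate pathway, which makes NADPH and ribose from glucose 6-phosphate, 3 of 6 tested genes were called higher and none lower. The 3 not called included the lowest difference of the list, -0.27. Of all tested genes 17.4% were called higher and 27.6% lower. Tkt, transketolase, had 195, 192 and 193 FPKM in ES, against 150, 152 and 150 FPKM in SCI (0.35, adjusted p 3.2e-05). Taldo1, transaldolase, named after its values were seen, was also higher (0.09, adjusted p 0.0432), whose call was lost when any library other than ES replicate 2 was left out (adjusted p up to 0.12). In the list of anaplerosis and gluconeogenesis, none of 7 tested genes was called higher and 3 were lower. These were Pck2, the mitochondrial phosphoenolpyruvate carboxykinase (6.74 ± 0.674 FPKM in ES, 9.34 ± 0.269 FPKM in SCI; -0.42, adjusted p 0.00358), the malic enzyme Me3 (3.68 ± 0.399 FPKM in ES, 5.27 ± 0.322 FPKM in SCI; -0.42, adjusted p 0.0065), and Pc, pyruvate carboxylase, an enzyme of astrocytes (24.5 ± 0.312 FPKM in ES, 27.2 ± 0.670 FPKM in SCI; -0.15, adjusted p 0.0106, lost under median centring). Over all further pathway lists, 74 of 78 genes were in the table, 63 were tested, 11 were called higher and 22 lower, with a median of -0.04.

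Ratios of isozymes and related transporters within a library do not depend on library scaling and were compared for 12 pairs by a two-sided exact permutation test on their log2 values. With 3 libraries against 3 the smallest p is 0.1, so no pair could pass 0.05, and the values below describe size and overlap. Groups did not overlap for 9 of the 12 pairs, each with an exact p of 0.1 and an adjusted p of 0.133. How often other pairs of genes do not overlap was not computed, so this count shows nothing particular to isozymes. The sign of a difference depends on which gene of the pair is on top, and pairs with Slc16a1, Pdk2 or Pfkm below share that gene. The ratio Slc16a3 to Slc16a1 was 0.172 ± 0.0076 in ES and 0.0949 ± 0.0133 in SCI, a log2 difference of 0.87. The ratio Ldha to Ldhb was 0.730 ± 0.0207 in ES and 0.455 ± 0.00366 in SCI, a log2 difference of 0.68. The ratio Slc16a7 to Slc16a1 differed by 0.54 and that of Pygb to Pygm by 0.51, so Pygm differed more than Pygb though both were lower. The ratio Pfkl to Pfkm was 1.10 ± 0.0344 in ES and 0.778 ± 0.0338 in SCI, a log2 difference of 0.50 (SD, n = 3 each for these ratios). From sums of transcripts the log2 difference of Pfkl to Pfkm was also 0.50. Smaller log2 differences were found for Hk2 to Hk1 (0.28), Pdk4 to Pdk2 (0.23), Idh1 to Idh2 (0.20) and Mdh1 to Mdh2 (0.07, and 0.034 without ES replicate 1). The pairs Pfkp to Pfkm, Pdk1 to Pdk2 and Eno2 to Eno1 overlapped between groups. In the last pair Eno2 was near 0 in ES replicate 3, without which the log2 difference was 0.32.

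**Figure D5:**
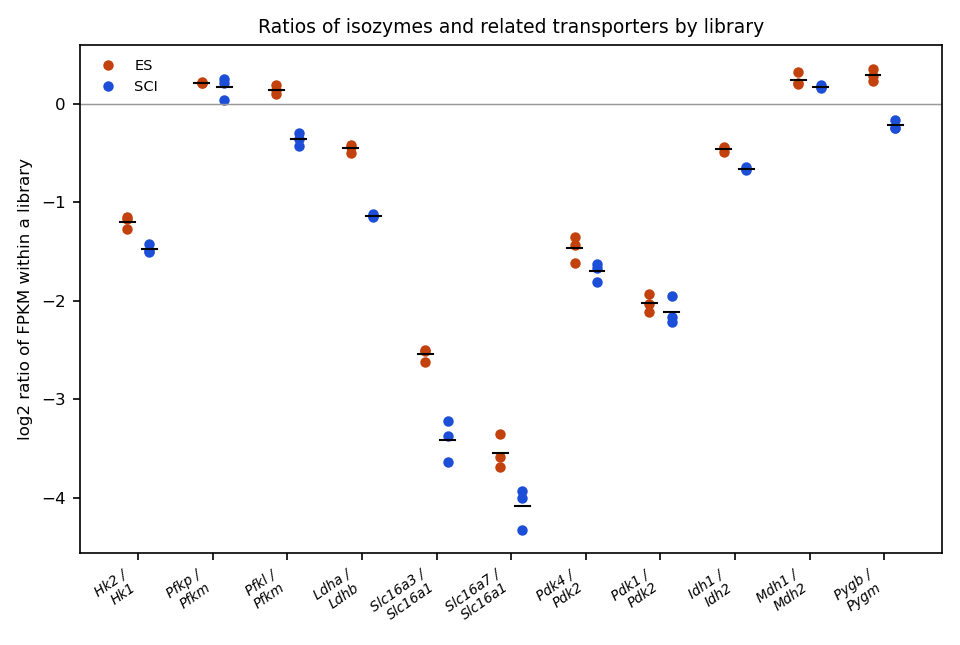
Log2 ratio of FPKM of 2 genes within each library, for 11 of the 12 pairs, ES left and SCI right at each pair, with the group mean as a bar. Eno2 to Eno1 is left out because Eno2 is near 0 in ES replicate 3. The groups are farthest apart for Slc16a3 to Slc16a1 and Ldha to Ldhb, and overlap for Pfkp to Pfkm and Pdk1 to Pdk2.

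Per length, the order of levels within the set was much alike in both groups. Aldoa was highest (479 ± 3.42 FPKM in ES, 466 ± 17.8 FPKM in SCI), followed by Eno1 and Pkm. By gene values, the means of Eno1 and Pkm in ES, 290 ± 2.15 and 286 ± 9.30 FPKM, lie within their spread. In SCI Eno1 at 313 ± 2.76 FPKM stood above Pkm at 268 ± 4.73 FPKM (SD, n = 3 each). The order of these genes in ES depends on the measure. The gene value was 0.915 of the sum of transcripts for Eno1 and 0.82 to 0.839 of it for Pkm. Ldhb came next in both groups. The lowest levels in both groups were those of Slc16a7 (2.74 ± 0.330 FPKM in ES, 2.99 ± 0.449 FPKM in SCI) and Slc16a3 (5.47 ± 0.325 FPKM in ES, 4.76 ± 0.542 FPKM in SCI), followed by Gys1.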

How the data were processed

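The authors deposited FPKM per library for 32623 genes and 40808 transcripts, with 0.0001 in place of 0. Per the labels' protocols, poly(A) RNA from 1 ug of total RNA was made into stranded libraries with inserts of about 300 bp, read from both ends. The submitters' processing notes name HISAT and StringTie, without version or role. Build and annotation were not given in the sources used here. Also, the authors deposited a fold (the ratio of mean FPKM, ES over SCI), its log2, and a p-value and q-value from a test that the sources used here do not name.

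Genes with a mean of at least 0.5 FPKM entered a single two-sided limma fit (limma 3.58.1, R 4.3.3; mean-variance trend) of log2(FPKM + 1); log2 fold changes on this scale understate low genes. The test was checked on simulated data. Transcript usage used diffSplice. Libraries were grouped by their treatment label. Members, lists and tests were chosen with earlier results of these data known. The text names all members and, per further list, up to 2 called genes in each direction by smallest p plus the largest change; any others were picked once their values had been seen, and a few genes under this rule are not reported here. Alternatives were a pseudocount of 0.1, no filter or a filter of 2 FPKM, 4 scalings (quantile, median centring, equal totals with and without mitochondrially encoded genes), no trend, a replicate block, a 1.5-fold minimum and leaving out each library; for the ratios they were a pseudocount of 1, sums of transcripts and leaving out each library. Summing genes of like description was added after the values were seen.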

Additional observations from a re-analysis of the deposited data

How the results depend on the processing

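The counts of called genes moved by over 1.5 times under 3 of the alternatives. With at least 1.5-fold, 0 of the 40 genes were higher and 2 lower, of all genes 540 and 1168, of the further pathway genes 1 and 3, and of the member transcripts 0 and 2. Median centring gave 20 higher among the 40, 17 higher among the further genes, and 19 higher and 6 lower transcripts. Equal totals gave 6 higher among the 40 and 7 higher transcripts. Transcript usage called 2 genes in place of 1 with no filter and without SCI replicate 2. Leaving out 1 library in turn gave log2 differences of -0.021 to 0.085 for the ratio Pfkp to Pfkm, of 0.034 to 0.165 for Pdk1 to Pdk2 and of -2.54 to 0.32 for Eno2 to Eno1. No called gene turned its direction under a scaling, while 11 genes not called did. Equal totals turned Gpi (-0.031), Aldoa (-0.034), Idh3b (-0.028), Sucla2 (-0.065), Suclg1 (-0.015), Mdh2 (-0.00033) and Gys1 (-0.015), and without mitochondrially encoded genes Sucla2 (-0.00198). Quantile normalization turned Hk2 (0.038), Gpi (-0.032), Aldoa (-0.081, called), Slc16a7 (0.057) and Pdk1 (0.023), and median centring Hk2 (0.075), Slc16a7 (0.0028), Pdha1 (0.056) and Pdk1 (0.039). Leaving out 1 library in turn gave -0.038 to 0.0081 for Hk2, -0.102 to 0.0091 for Pdk1, -0.34 to 0.45 for Pfkfb3, -2.02 to 0.20 for Eno2 and -0.043 to 0.055 for Sucla2. The cause of these turns was not tested. Of the single-gene values under all alternatives, 561 kept direction and call among the 40 genes, 42 lost the call, 13 gained it and 24 turned; of the genes outside the set that were recomputed, 743 kept them and 52 lost the call.

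Deviations from the group mean correlated at -0.0264, -0.0261 and -0.0292 between libraries with the same replicate number. Between libraries with different numbers the correlations ran from -0.0533 to 0.0796. No sign of pairing by number was seen. Deviations within a group of 3 are tied to each other, so this check cannot exclude pairing. With the replicate block 10 of the 40 genes were called higher and 10 lower, and the calls of Idh2 (adjusted p 0.0546) and Pdhb (0.0906) were lost. The block left 10 higher and 22 lower among the further genes, 2466 and 3851 among all genes, 10 and 9 member transcripts, and 1 gene in usage. Depth per gene is known only as an estimate, and 3 libraries a group limit the exact test to p of 0.1 or more.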

Other observations

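A pathway that branches from glycolysis at 3-phosphoglycerate was looked at after the values above were seen. Phgdh, the first enzyme of serine synthesis, known from astrocytes, had 51.7, 51.4 and 52.6 FPKM in ES, against 130, 128 and 134 FPKM in SCI, a wider difference than any of the 40 genes that were called (log2 fold change -1.31 ± 0.03 SE, limma adjusted p 7.39e-07). Its ES mean was 0.398 of its SCI mean, and the call held under every alternative run. The next enzymes of the branch did not go with it. Psat1 averaged 49.8 ± 0.882 FPKM in ES and 47.0 ± 0.440 FPKM in SCI (0.08, adjusted p 0.0488), a call lost without any 1 library (adjusted p up to 0.148), and Psph had 8.81, 8.57 and 9.58 FPKM in ES and 7.95, 9.09 and 9.48 FPKM in SCI, with overlap and no call.

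Genes of the creatine system, which buffers ATP, also differed, and they were likewise listed after values were seen. Gamt, which makes creatine and is known from oligodendrocytes, had 74.6, 71.1 and 72.3 FPKM in ES, against 51.9, 47.1 and 50.5 FPKM in SCI (0.54, adjusted p 0.000132). Gatm, the first enzyme of creatine synthesis, averaged 127 ± 2.34 FPKM in ES and 104 ± 1.98 FPKM in SCI (0.29, adjusted p 0.000254). Ckmt1, a mitochondrial creatine kinase, averaged 12.9 ± 1.09 FPKM in ES and 9.86 ± 0.499 FPKM in SCI (0.36, adjusted p 0.00622). Ckb, the brain type cytosolic creatine kinase, had 791, 787 and 754 FPKM in ES, against 978, 918 and 965 FPKM in SCI (-0.29, adjusted p 0.000553). The creatine transporter Slc6a8 averaged 76.9 ± 0.825 FPKM in ES and 82.2 ± 0.477 FPKM in SCI (-0.10, adjusted p 0.0139), a call lost under median centring and without ES replicate 2 (adjusted p 0.0543). Oligodendrocyte markers were higher and astrocyte markers lower in ES in the same libraries, and their part in these differences was not tested.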
